A study of Mus musculus with 15 samples.

Results

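The core circadian clock genes were followed in kidneys of mice labelled as Cre-driven knockouts of Esrrg, the gene of the orphan nuclear receptor ERRγ. They are 10 genes (Arntl, Clock, Per1, Per2, Per3, Cry1, Cry2, Dbp, Nr1d1 and Nr1d2), matched by symbol, of 23393 genes in each of 3 tables, and all 10 were found in all 3. The knockout groups were ERRg fl/fl;Sim1-Cre males at 3 months, males at 3 weeks and females at 3 weeks, with 3, 3 and 2 libraries per the labels. Each was set against littermates of the same sex and age that carried ERRg fl/fl without the Cre, with 3, 2 and 2 libraries. All mice were C57BL/6, the floxed alleles were shared by both arms, and RNA came from whole kidney, so that fewer cells of a type and less RNA per cell cannot be told apart. The Cre follows Sim1, and its cells are not described in the labels. The labels used here give no time of day at which the kidneys were taken.

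The deposited data are the authors' own comparisons, one table for each sex and age, so no value of a single library can be shown. For each gene they give the authors' mean of normalized counts in that table, the log2 fold change and its standard error (SE), the adjusted p-value, and a status. The status is OK where a p-value is given, Low for means under 10, and Outlier for other genes that have a fold change but no p-value, by a rule not given in the sources used here. A gene was called where the authors' adjusted p was under 0.05. The headers do not name the direction of the ratio. It was read as knockout over control because, in the authors' deposited tables, 35 of 43, 32 of 43 and 35 of 44 tested genes of mitochondrial complex I (Nduf genes) had called negative values in 3-month males, 3-week males and 3-week females, with 0 called positive ones. If the ratio runs the other way, every higher and lower here changes places. Esrrg itself had a log2 fold change of -0.87 ± 0.57 (SE, status Outlier) in 3-month males, 0.82 ± 0.20 in 3-week males and 1.04 ± 0.17 in 3-week females in the authors' deposited tables; reads outside the deleted exon can count, so this checks neither the deletion nor the labels. Xist and Ddx3y means of 11.9 and 1477 normalized counts in the 3-month table, from the authors' deposited table, match its male titles, while the source names of its knockout samples say female. Recurring steps among the lowest means pointed to 5, 4 and 4 libraries behind the tables of 3-month males, 3-week males and 3-week females, where the labels list 6, 5 and 4. On the direction used, the steps fall to 2 knockout and 3 control libraries in 3-month males and to 2 of each in both 3-week tables, so each knockout arm would rest on 2 libraries, and which labelled knockout library of each male table is missing is not known.

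In the mammalian clock a dimer of BMAL1, encoded by Arntl, and CLOCK binds E-box sequences and drives transcription of the Per and Cry genes, whose proteins return to the nucleus and repress that dimer. The nuclear receptors REV-ERBα and REV-ERBβ, encoded by Nr1d1 and Nr1d2, form a further loop by repressing Arntl against the activating ROR receptors, and DBP is an output factor that binds D-boxes. These transcripts rise and fall over the day in most tissues, the kidney among them, where the clock is known for its part in daily cycles of salt and water transport. Arntl peaks in a phase opposite to Dbp, Nr1d1 and the Per genes. The level of such a gene in a single collection depends on the hour.

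Promoter stretches are shown for the clock genes in which a clock motif was found, because these letters are the binding sequences that link the members, and for Ciart, a clock repressor of the wider list described below, which was chosen for its motifs after the search. Of 3 other genes of that list that were searched, Tef held an E-box in each of its 2 windows and Npas2 and Hlf held 0 motifs; the stretches of Tef are not shown. Sequence was taken from RefSeq on GRCm38.p6, which is the mm10 build that the submitters' processing notes name, and 9 of the 10 genes matched, with 13 promoter windows; Per2 was not matched. The 250 bases before each start site were searched on both strands for the E-box CACGTG, the E′-box CACGTT, which reads AACGTG on the other strand, the D-boxes TTATGTAA or, with a single base exchanged, TTATGCAA, the ROR element TAGGTCA and the ERR element AAGGTCA, the last of which is the half-site that ERRγ is known to bind. Capitals mark the motif, and each line runs 5′ to 3′ on the strand of the gene.
Per1: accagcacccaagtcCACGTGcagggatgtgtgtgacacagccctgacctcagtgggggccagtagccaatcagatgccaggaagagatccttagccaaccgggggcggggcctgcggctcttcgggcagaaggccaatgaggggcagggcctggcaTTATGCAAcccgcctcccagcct
Per3: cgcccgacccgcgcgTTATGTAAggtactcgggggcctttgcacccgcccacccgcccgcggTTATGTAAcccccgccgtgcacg
Cry1: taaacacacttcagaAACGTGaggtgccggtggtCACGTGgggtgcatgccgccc
Cry2: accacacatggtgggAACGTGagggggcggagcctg
Nr1d1: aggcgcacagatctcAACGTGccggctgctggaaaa
Ciart: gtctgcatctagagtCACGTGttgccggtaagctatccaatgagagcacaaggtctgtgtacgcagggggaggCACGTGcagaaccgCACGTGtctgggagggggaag
The Per1 stretch lies at chr11:69098768-69098947 on the plus strand, within the gene and outside its exons in GENCODE. It holds an E-box and, nearer to the start site, a D-box. The Per3 stretch, at chr4:151044801-151044885 on the minus strand and inside the neighbouring gene Camta1, holds 2 D-boxes. In Cry1, at chr10:85185094-85185148 on the minus strand, an E′-box starts at position -79 and an E-box at position -60, counted from the start site. Single E′-boxes were found in Cry2 at chr2:92434215-92434250 and in Nr1d1 at chr11:98775385-98775420, both on the minus strand and outside annotated genes. Ciart, at chr3:95882252-95882359 on the minus strand and inside C920021L13Rik, holds 3 E-boxes. Of the 9 matched clock genes, 2 held an E-box, 3 an E′-box, 2 a D-box, and 0 a ROR or ERR element. Among all 32851 promoter windows of the same length, 6.02% held the E-box, 3.85% the E′-box, 1.5% the D-box, 2.23% the ROR element and 4.08% the ERR element. The counts above are per gene, and some genes have several windows, whereas the shares are per window, so they are not directly comparable. A match is a description of the letters in this window and no more.

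**Figure D1:**
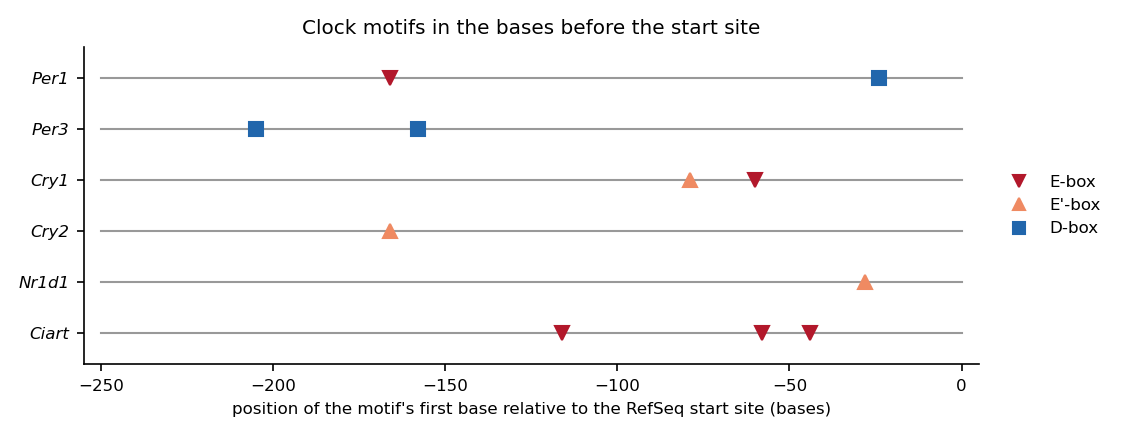
Position of each motif's first base relative to the RefSeq start site (x axis, bases) for 5 clock genes and Ciart (rows); the grey line is the 250 bases searched and the symbols mark E-boxes, E′-boxes and D-boxes. Per1 holds an E-box at -166 and a D-box at -24, Per3 holds only D-boxes, and Ciart holds 3 E-boxes.

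In GENCODE on the same build, the activator genes lie at chr7:113207465-113314126 on the plus strand (Arntl) and chr5:76209868-76304792 on the minus strand (Clock). The period genes lie at chr11:69095217-69109960 on the plus strand (Per1), and on the minus strand at chr1:91415982-91459324 (Per2) and chr4:151003652-151044665 (Per3). The cryptochrome genes lie on the minus strand at chr10:85131700-85185064 (Cry1) and chr2:92403646-92434043 (Cry2). Nr1d1, at chr11:98767932-98775333, and Nr1d2, at chr14:18204054-18239127, are also on the minus strand, and Dbp, on the plus strand at chr7:45705088-45710203, shares its chromosome with Arntl.

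All 10 clock genes were expressed well above the range of status Low. In the authors' deposited tables their means were 104.6 (Cry1) to 2348 (Nr1d2) normalized counts in 3-month males, 605.8 (Cry1) to 6687 (Per1) in 3-week males, and 551.6 (Arntl) to 4657 (Per1) in 3-week females. The tables were normalized separately and sum to 18839759, 47568700 and 33925341 normalized counts, so levels are compared within a table. Per kilobase of exon, Nr1d1, Dbp, Nr1d2 and Per1 held the top 4 places in each authors' deposited table, and Arntl, Per3 and Cry1 held the lowest 3. Per1 led both 3-week tables, with 1188 normalized counts per kilobase in males and 827.1 in females, whereas Nr1d1 led at 3 months with 590.3 and Per1 was 4th with 253.7, all computed from the authors' deposited tables. These means pool both genotypes and carry no spread between libraries, so which neighbours in the order differ was not tested.

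Most of the clock genes carry no p-value. In the authors' deposited tables the status Outlier was given to 5 of 10 in 3-month males, 7 of 10 in 3-week males and 8 of 10 in 3-week females. Over all genes with status OK or Outlier the share was 10.6%, 4.01% and 5.62%. The lists of urothelium and fat cell markers described below had shares as high or higher, so a high share is not particular to the clock genes. Arntl, Per3, Cry2 and Dbp had this status in all 3 of the authors' deposited tables, as did 0.826% of the 14171 genes that were OK or Outlier in each. The genes with a p-value were Clock, Per1, Cry1, Nr1d1 and Nr1d2 in 3-month males, Per2, Cry1 and Nr1d2 in 3-week males, and Clock and Per1 in 3-week females. No gene of the 10 had a p-value in all 3.

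**Figure D2:**
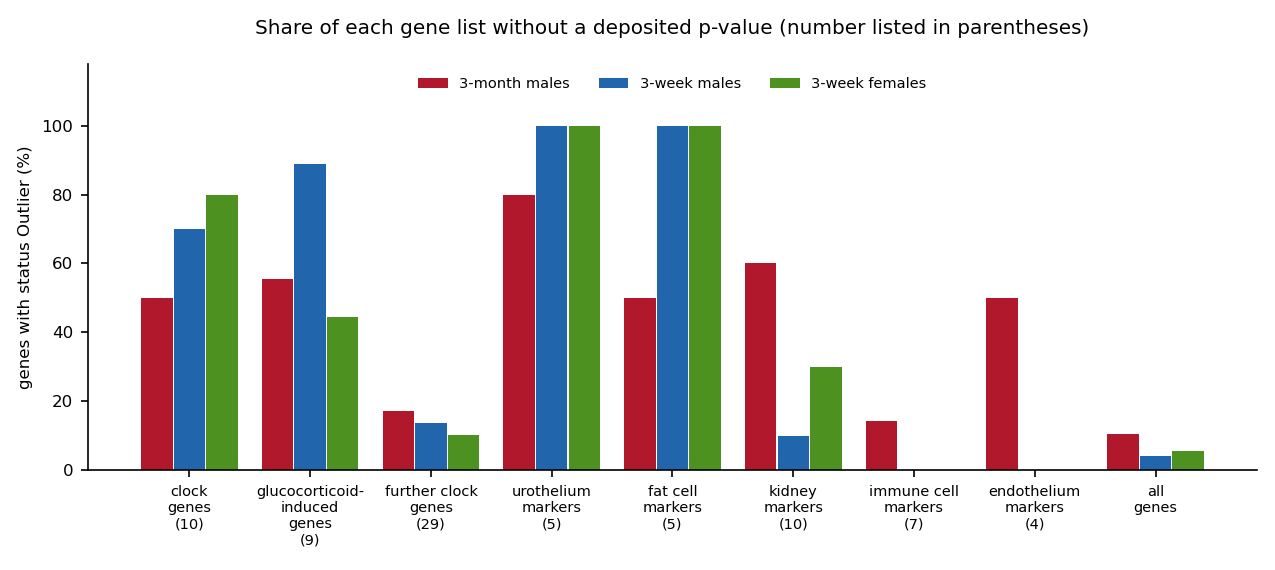
Percent of each gene list with status Outlier in the authors' deposited tables (y axis), by list, with the number of listed genes in parentheses; bars are 3-month males (red), 3-week males (blue) and 3-week females (green), and the share is of genes with status OK or Outlier. The clock genes stand at 50%, 70% and 80%, the further clock genes at 17.2%, 13.8% and 10.3%, and all genes at 10.6%, 4.01% and 5.62%. Urothelium markers stand at 80%, 100% and 100%, fat cell markers at 50%, 100% and 100%, and glucocorticoid-induced genes at 55.6%, 88.9% and 44.4%.

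Standard errors were also large for genes of this abundance. Set against the 250 genes on each side in the order of means, 6, 8 and 8 of the 10 clock genes lay above the 90th percentile of SE in 3-month males, 3-week males and 3-week females, computed from the authors' deposited tables. Their median SE was 2.12, 1.56 and 2.15 times the median of such neighbours, while genes with status Outlier in general had median ratios of 2.09, 1.51 and 1.89. As the rule behind the status is not known, the SE and the status are not separate evidence. Dbp at 3 months had the highest ratio, 4.12, with an SE of 0.70 in the authors' deposited table. At the other end, Per1 in 3-week females had an SE of 0.16, a ratio of 1.11. SEs pile up near 0.794, 0.440 and 0.423 in the 3 authors' deposited tables, as happens where fold changes are moderated towards 0, so ratios near these ceilings understate the spread, and SEs are not compared between tables.

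**Figure D3:**
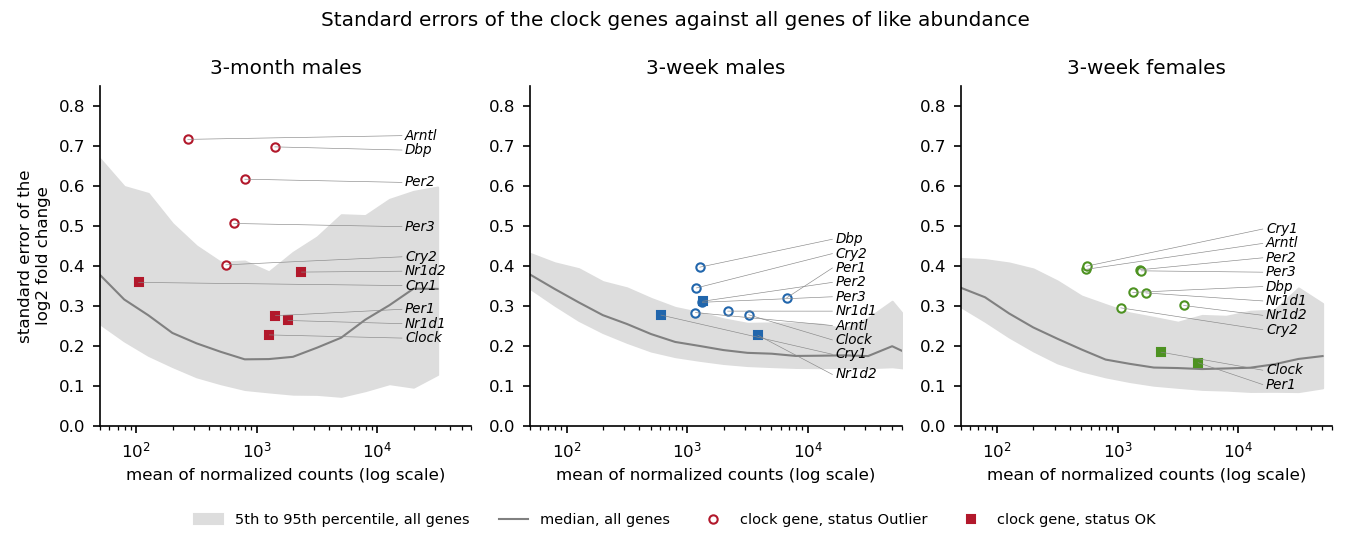
SE of the log2 fold change (y axis) against the mean of normalized counts (x axis, log scale) in each of the authors' deposited tables; the grey band runs from the 5th to the 95th percentile of all genes, the line is their median, open circles are clock genes with status Outlier and filled squares those with status OK. In 3-month males Arntl, Dbp, Per2 and Per3 stand above the band, in the 3-week panels most clock genes do, and Per1 in females lies near the median.

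In 3-month males, 3 of the 5 tested clock genes were called, Cry1 higher and Nr1d1 and Clock lower in knockouts, where 57.5% of the 12828 tested genes were called. The share of the members is near that of the table. Over the 10 genes, 5 of them with status Outlier, the median log2 fold change was -0.67, and 7 of 10 were negative in the authors' deposited table. Over the 5 tested clock genes the median was -0.58, beside 0.01 over all tested genes. The 95% intervals of 5 of the 10 spanned 0. An approximate scaling to total counts adds 0.49 to every log2 fold change in this table. This moves the median of the 10 to -0.17 and leaves 7 negative. No library total is known, so the shift was estimated from the pooled means, the deposited fold changes and the implied library numbers.

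Among the repressors at this age, Cry1, a cryptochrome that binds and inhibits the BMAL1 and CLOCK dimer, rose by 1.20 on the log2 scale (SE 0.36, adjusted p = 0.00198) in the authors' deposited table. With the mean split by that fold change, its moderation undone, and the library numbers of the table, this corresponds to about 161 normalized counts in knockouts and 66.9 in controls, an approximation from the authors' deposited table and not a measured group mean. Its relative Cry2 had 0.02 ± 0.40 (SE, status Outlier) in the authors' deposited table. The period genes all had negative values, Per1 with -0.54 ± 0.28 (SE, adjusted p = 0.0830), Per2 with -0.76 ± 0.62 and Per3 with -1.005 ± 0.51 in the authors' deposited table, the last 2 with status Outlier. Of the 5 Per and Cry genes only Per1 and Cry1 had a p-value at 3 months, and of these Cry1 was called. The sign of Cry1 was opposite to those of the 3 Per genes.

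Of the activators, Clock fell by 0.58 on the log2 scale (SE 0.23, adjusted p = 0.0214) in the authors' deposited table, about 978 normalized counts in knockouts and 1470 in controls by the same approximation. Its partner Arntl had 0.11 ± 0.72 (SE, status Outlier), with an interval of -1.29 to 1.52 that leaves its direction unknown, from the authors' deposited table. Nr1d1 fell by 0.76 (SE 0.26, adjusted p = 0.00861) in the authors' deposited table, about 1271 normalized counts in knockouts and 2180 in controls, and Nr1d2 had -0.81 ± 0.38 (SE, adjusted p = 0.0612). Dbp had -0.999 ± 0.70 (SE, status Outlier) in the authors' deposited table. With total-count scaling Clock had -0.08 (adjusted p = 0.765, and 0.0188 to 0.765 over the alternatives). Nr1d1 had -0.26 (adjusted p = 0.384, and 0.00761 to 0.384 over the alternatives). Both calls of lower genes were thus lost under this approximate scaling, while Cry1 had 1.70 and was still called.

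In 3-week males, 0 of the 3 tested clock genes were called, where 17.3% of the 14657 tested genes were called (8.81% higher and 8.52% lower). The authors' DESeq2 fit gave 1 of the 3, Cry1, an unadjusted p under 0.05. The log2 fold change of Cry1 was 0.66 ± 0.28 (SE, adjusted p = 0.0804) in the authors' deposited table, about 759 normalized counts in knockouts and 452 in controls by approximation. With total-count scaling, which adds 0.18, it was called with 0.84 (adjusted p = 0.0163; 0.0163 to 0.0965 over the alternatives). Per2 had 0.60 ± 0.31 (SE, adjusted p = 0.191) and Nr1d2 0.14 ± 0.23 (SE, adjusted p = 0.768) in the authors' deposited table. The 7 genes with status Outlier ran from -0.46 ± 0.29 (SE) for Nr1d1 to 0.63 ± 0.34 (SE) for Cry2 in the authors' deposited table, and Arntl (-0.08 ± 0.28) and Clock (-0.0031 ± 0.28) were closest to 0. Over the 10 genes, 7 of them with status Outlier, the median was 0.13, and 9 of 10 intervals spanned 0. Over the 3 tested clock genes the median was 0.60, against -0.01 over all tested genes. The authors' scaling gave 4 negative values of 10, and total-count scaling 1, since Arntl, Clock and Dbp turned positive.

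In 3-week females, 1 of the 2 tested clock genes was called, Per1, where 18.7% of the 14146 tested genes were called (8.29% higher and 10.4% lower). Per1, which is also induced by glucocorticoids, fell by 0.41 on the log2 scale (SE 0.16, adjusted p = 0.0493) in the authors' deposited table, about 3976 normalized counts in knockouts and 5339 in controls. This call lies just under the threshold: adjusting over every gene with a fold change gave an adjusted p of 0.0600 and total-count scaling a value of -0.26 with an adjusted p of 0.228 (0.0438 to 0.228 over the alternatives). The other tested gene, Clock, had 0.17 ± 0.18 (SE, adjusted p = 0.566) in the authors' deposited table. Nr1d1 and Dbp had the largest values in size, -0.99 ± 0.33 and -0.93 ± 0.33 (SE), and both had status Outlier in the authors' deposited table. Adjusted over every gene with a fold change, an alternative that puts back the genes the authors set aside, they had adjusted p = 0.0250 and 0.0403. The remaining values ran from -0.45 ± 0.29 (SE) for Cry2 to 0.33 ± 0.39 (SE) for Arntl in the authors' deposited table, the median over the 10 was -0.18, and 8 were negative. With total-count scaling, which adds 0.15 here, the median was -0.03 and 5 were negative, since Per3, Cry1 and Nr1d2 turned positive.

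**Figure D4:**
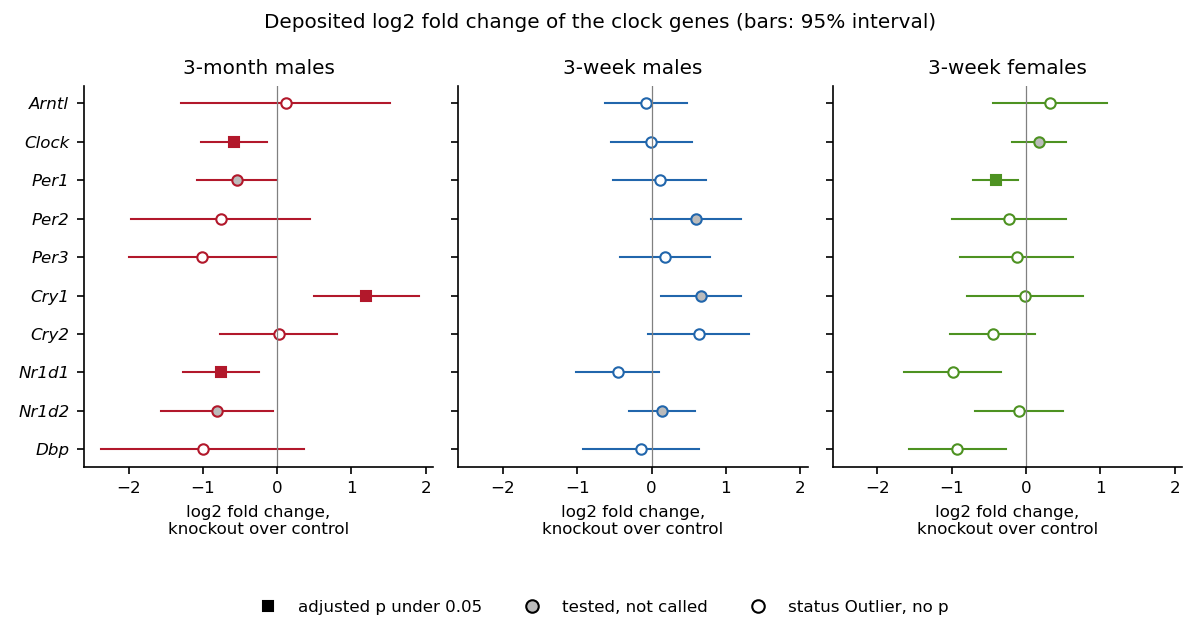
Log2 fold change, knockout over control (x axis), of the 10 clock genes (rows) in the 3 authors' deposited tables, with 95% intervals of 1.96 SE as bars; filled squares are called genes, grey circles tested genes that were not called, open circles genes with status Outlier. Cry1 stands apart on the positive side in 3-month males at 1.20, and Nr1d1 and Dbp lie at -0.99 and -0.93 in 3-week females as open circles.

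Nr1d1 and Dbp were the 2 clock genes with negative values in all 3 of the authors' deposited tables. For Nr1d1 these were -0.76, -0.46 and -0.99 in 3-month males, 3-week males and 3-week females, and for Dbp -0.999, -0.14 and -0.93. Under total-count scaling Dbp was at 0.04 in 3-week males, so its sign there depends on the scaling, and it carried no p-value in any authors' deposited table. Cry1 was positive in both male tables and -0.01 ± 0.40 (SE) in females in the authors' deposited tables.

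The genes whose 3 log2 fold changes lay nearest to those of Arntl and Dbp were looked up among 9109 genes, by the distance in log2 units over the 3 comparisons. Nearest to Arntl were Papolg, Ankrd10, Trim65, Crebzf and Eogt, at distances of 0.04 to 0.09, and none of these 5 was called in any of the authors' deposited tables. Nearest to Dbp were Cdr2, Mocs1, Agpat9, Slc25a22 and Ppp2r3a, at 0.27 to 0.37. Each of these 5 was called lower in 3-month males and 3-week females, and none in 3-week males, in the authors' deposited tables. With 3 values a gene, such likeness is loose. The genes were chosen by these same values, so their calls are no separate evidence on Arntl or Dbp.

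Whether the knockout effect differed with age or sex was tested on the difference between log2 fold changes, with the 2 SEs combined. Between 3-month and 3-week males, 2 of the 10 clock genes had a p-value in both tables and 0 were called, where 27.7% of the 12355 genes tested for this difference were called; 1 of the 2 had an unadjusted p under 0.05 in this normal test. Nr1d2 differed by -0.94 ± 0.45 (SE, adjusted p = 0.0999) and Cry1 by 0.54 ± 0.45 (SE, adjusted p = 0.399), computed from the authors' deposited tables. With every gene that has a fold change included, Per2 differed by -1.36 (adjusted p = 0.139) and Per3 by -1.19 (adjusted p = 0.130), and 0 of 10 were called, where 25.3% of 17829 genes were. Between 3-week males and 3-week females none of the 10 had a p-value in both tables. With every gene included, 0 of 10 were called, where 0.0111% of 18072 genes were, and Cry2 had the largest difference among the 10, 1.08 with an interval of 0.20 to 1.97. The intervals of these differences are wide, and a difference that was not called may still exist.

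A wider list of 29 genes of the clock system was chosen from textbook roles, with earlier results of these data known. It was tested for 24, 25 and 26 genes and called for 13, 4 and 5 in 3-month males, 3-week males and 3-week females. These are 54.2%, 16.0% and 19.2% of those tested, near the 57.5%, 17.3% and 18.7% over all tested genes, so the number of calls is not a result about the list. The status Outlier was given to 5, 4 and 3 of the 29 (17.2%, 13.8% and 10.3%) in the authors' deposited tables. Only Npas2, a relative of Clock, had it in all 3. In 3-month males 5 of the 13 were higher and 8 lower, beside 29.8% higher and 27.8% lower over all tested genes. With total-count scaling the split was 9 higher and 5 lower. That scaling raises every gene, and the shares over all genes under it are not given here. The change of the split is thus not a result about the list.

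At 3 months, a receptor and a cofactor of the loop around Nr1d1 and Nr1d2 were among the lower genes. Rora fell by 1.48 (SE 0.20, adjusted p = 3.98e-12) and Ncor1, a corepressor that REV-ERB receptors recruit, fell by 1.10 (SE 0.23) in the authors' deposited table. Of the PAR bZIP factors related to Dbp, Tef fell by 1.58 (SE 0.42, adjusted p = 0.000569), while Hlf had -2.90 ± 0.39 (SE) with status Outlier in the authors' deposited table. Among the genes for turnover of PER and CRY proteins, Fbxl21 fell by 1.58 (SE 0.31), Fbxw11 by 0.77 (SE 0.26) and Btrc by 0.49 (SE 0.11), whereas Csnk1e, a kinase of PER proteins, rose by 1.67 (SE 0.14, adjusted p = 2.09e-29) in the authors' deposited table. Csnk2a1, a subunit of casein kinase 2, fell by 0.54 (SE 0.22) in the authors' deposited table. Under total-count scaling Fbxw11, Csnk2a1 and Btrc were no longer called, with adjusted p = 0.348, 0.874 and 0.991, and Btrc turned to 0.0015 (over the alternatives the adjusted p ran from 0.00525 to 0.348, 0.0239 to 0.874 and 6.71e-06 to 0.991). Arntl2, a paralogue of Arntl, rose by 2.21 (SE 0.47, adjusted p = 8.17e-06) at a low mean of 24.8 normalized counts in the authors' deposited table. Bhlhe41, a repressor that binds E-boxes, rose by 0.89 (SE 0.39, adjusted p = 0.0407), and Timeless and Prkaa1, a subunit of the kinase AMPK, rose by 0.83 (SE 0.23) and 0.33 (SE 0.09) in the authors' deposited table.

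At 3 weeks 2 genes of the list were called higher and 2 lower in males, and 2 higher and 3 lower in females; with total-count scaling the split was 3 higher and 0 lower in males and 7 higher and 1 lower in females. In males, Bhlhe40 rose by 0.61 (SE 0.18) and Bhlhe41 by 0.98 (SE 0.33), and Hlf fell by 0.49 (SE 0.15) and Nampt by 0.52 (SE 0.19) in the authors' deposited table. In females, Arntl2 rose by 1.06 (SE 0.35) and Rorb by 1.30 (SE 0.39) in the authors' deposited table. Ciart, Nampt and Usp2 fell by 1.24 (SE 0.37), 0.64 (SE 0.24) and 0.39 (SE 0.14) in the authors' deposited table. Arntl2, Rorb and Ciart had low means there, 33.8, 25.2 and 92.0 normalized counts. Nampt, which encodes the rate-limiting enzyme of NAD salvage and is a known clock output, was the gene of this list with a called lower value in all 3 of the authors' deposited tables; at 3 months it fell by 1.06 (SE 0.16, adjusted p = 9.85e-10). Under total-count scaling the 3-week calls of Nampt were lost, with adjusted p = 0.216 in males (0.0407 to 0.216 over the alternatives) and 0.123 in females (0.0404 to 0.123), and the 3-month call was kept.

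**Figure D5:**
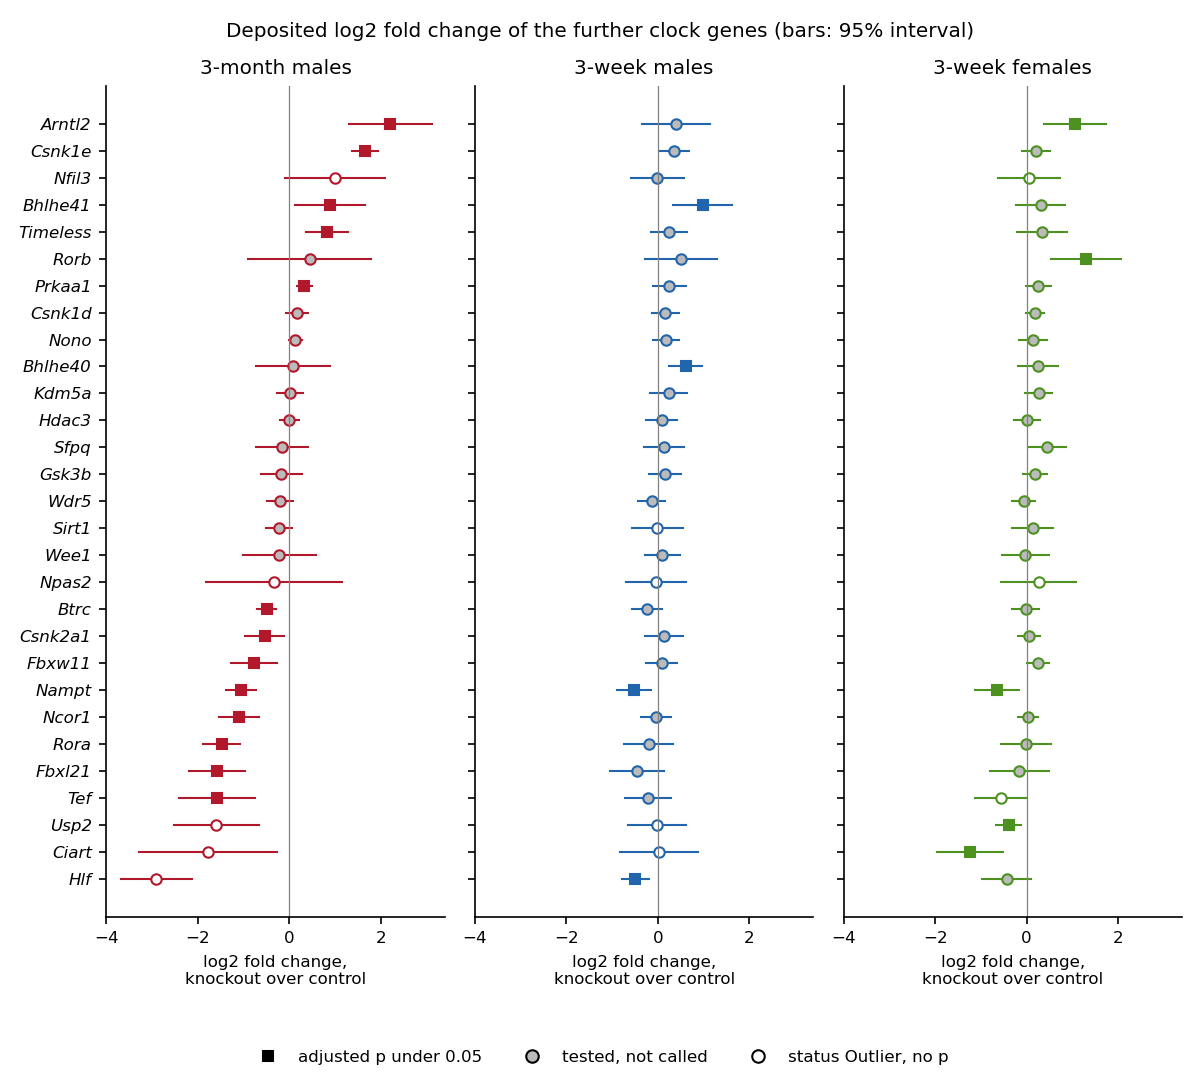
Log2 fold change, knockout over control (x axis), of the 29 further clock genes (rows, ordered by 3-month males) in the 3 authors' deposited tables, with 95% intervals as bars and symbols for called, tested and Outlier genes. In 3-month males values run from -2.90 (Hlf) to 2.21 (Arntl2), and Nampt is called at the negative side in all 3 panels.

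Glucocorticoids also vary over the day and act on Per1, so 9 genes known to be induced by them, Per1 included, were looked at. Of these, 5, 8 and 4 had status Outlier in 3-month males, 3-week males and 3-week females, and Tsc22d3, Dusp1 and Cdkn1a had it in all 3 of the authors' deposited tables. The called members were 2 of 4, 1 of 1 and 2 of 5 tested, all lower, where 27.8%, 8.52% and 10.4% of all tested genes were called lower. Of the 2 in females, 1 is Per1. Called or not, 3 of the 9 had a positive value in 3-month males, 6 in 3-week males and 1 in 3-week females. The calls thus do not show a fall of the whole list. At 3 months these were Klf9 and Errfi1, chosen for naming after their values were seen: Klf9 fell by 1.69 (SE 0.22) and Errfi1 by 1.97 (SE 0.20) in the authors' deposited table. Sgk1, which acts on sodium channels, fell by 0.64 (SE 0.24, adjusted p = 0.0469) in 3-week males and by 0.70 (SE 0.25, adjusted p = 0.0317) in 3-week females in the authors' deposited tables. Under total-count scaling the 2 Sgk1 calls were lost, with adjusted p = 0.176 in males (0.0458 to 0.176 over the alternatives) and 0.0934 in females (0.0292 to 0.0934).

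Markers of tissue makeup moved with the same contrasts. All 10 kidney markers were present, and 4 of 4, 9 of 9 and 4 of 7 tested ones were called lower in 3-month males, 3-week males and 3-week females, where 27.8%, 8.52% and 10.4% of all tested genes were; 6, 1 and 3 had status Outlier. In each comparison 9 of the 10 had a negative value and 1 a positive one. They ran from 712 (Nphs1) to 326660 (Kap) normalized counts at 3 months, in the authors' deposited table, and 4 of 5 adrenal markers had status Low in each table. At 3 months, 5 of 5 urothelial markers had log2 fold changes of 6.87 to 10.02 in the authors' deposited table (4 with status Outlier). Of 7 immune markers, 6 were tested and called higher, where 29.8% of all tested genes were, and 1 had status Outlier. The 4 fat cell markers above status Low had values of 3.39 to 4.96 in the authors' deposited table, 2 of them called higher. At 3 weeks the urothelial values were 1.58 to 2.09 in males and 0.26 to 0.86 in females in the authors' deposited tables, all with status Outlier. In each sex 4 of 7 tested immune markers were called higher, where 8.81% of all tested genes were in males and 8.29% in females. Of these 7 markers, 1 had a negative value in males and 2 in females. All 5 fat cell markers had status Outlier in both 3-week tables. Of 4 endothelial markers, 2 were tested at 3 months, with 1 called higher and 1 lower, and 2 had status Outlier. All 4 were tested at 3 weeks, with 2 called lower in males and 4 in females. Over all tested genes, 29.8% were called higher and 27.8% lower at 3 months, and 8.52% and 10.4% lower in 3-week males and females. The part of the tissue markers in the clock gene values was not tested.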

How the data were processed

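Kidney RNA of 15 mice in 6 groups was sequenced from stranded polyA libraries, per the labels' protocols. The submitters' processing notes name STAR, HOMER, DESeq2 and the build mm10, without versions. What the authors deposited are their own results for 3 comparisons. Per the file headers, the values are mean normalized counts (unit: signal), log2 fold changes with SEs, and raw and adjusted p-values; a last column, the status, has no documented rule. They hold no counts per library, so the per-library tests planned for the groups were not run and depth per library is unknown; SEs of the fold changes give the precision. Spread in these p-values is that among the libraries behind a table, and may be partly technical. For 100% of genes the deposited p-value equals, within 1%, that of a normal test of the ratio of fold change to SE. The SEs show a ceiling, which arises where fold changes are moderated towards 0.

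From these tables, 95% intervals, SE percentiles among the 501 genes of nearest mean, differences between tables with Benjamini-Hochberg adjustment over all genes tested, list counts and motif counts were computed in Python 3.11.15 with numpy 2.4.6, pandas 2.3.3 and scipy 1.17.1. Rows with symbols turned into dates (27 per table) were left out. Ciart and Adgre1 are listed under older symbols. Only the difference test and the undoing of the moderation were tested on simulated data. The implied library numbers and the total-count shift were not. Means by genotype are approximations. They come from the mean, the fold change with the moderation undone, and the library numbers implied by steps in low means. The shift of total-count scaling is approximate too: it compares sums of such means over genes, split by the deposited fold changes. Alternatives were a threshold of 0.01, adjustment over every gene with a fold change, a mean of at least 100, total-count scaling, subtraction of the median, and undoing the moderation, the last added after seeing the data. The members, the lists of clock, glucocorticoid-induced, kidney, immune, fat cell, adrenal, urothelial and endothelial genes, and the tests were chosen with earlier results of these data known. Of the further clock genes first listed, 2 are not reported here. The rule named all clock genes, the further clock genes called in a table, glucocorticoid-induced genes called in at least 2 tables, and the 5 genes nearest to Arntl and to Dbp; Klf9, Errfi1, genes with status Outlier in all 3 tables and genes whose sign turns under an alternative were named after their values were seen.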

Additional observations from a re-analysis of the deposited data

Results flagged for a closer look

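Of the 29 further clock genes, 23 had a p-value in both male tables, and 7 of these (30.4%) had a knockout effect that differed between 3-month and 3-week males by a normal test of the difference between the authors' log2 fold changes, with Benjamini-Hochberg adjustment over all 12355 genes tested, where 27.7% were called; the share is near that of all genes. The difference, 3-month males minus 3-week males, was 1.81 ± 0.60 (SE, adjusted p = 0.0131) for Arntl2. The means of Arntl2 were low, 24.8 and 43.8 normalized counts in the authors' deposited tables. The difference was 1.32 ± 0.22 (SE, adjusted p = 1.03e-07) for Csnk1e. It was -1.28 ± 0.34 (SE, adjusted p = 0.00148) for Rora and -1.36 ± 0.49 (SE, adjusted p = 0.0268) for Tef. Fbxl21 differed by -1.12 ± 0.43 (SE, adjusted p = 0.0373; 0.0669 with the moderation undone, which ends the call, and 0.0343 to 0.0669 over the alternatives), Fbxw11 by -0.85 ± 0.31 (SE, adjusted p = 0.0257) and Ncor1 by -1.06 ± 0.28 (SE, adjusted p = 0.00161). With every gene that has a fold change included, 9 of 29 were called, and the 2 added, which lack a p-value in at least 1 of the male tables, were Hlf at -2.41 ± 0.42 (SE, adjusted p = 3.32e-07), the largest difference in size of the list, and Usp2 at -1.58 ± 0.57 (SE, adjusted p = 0.0268). The 2 tables shift by different amounts under total-count scaling (0.49 and 0.18), and that scaling was not applied to these differences. Urothelial, immune and fat cell markers also had larger values at 3 months, and their part in these differences was not tested.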

How the results depend on the processing

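No paired analysis was possible because the libraries are numbered without repeats across groups and the deposited tables hold no value per library; leaving out libraries, other size factors and other count models were not run for the same reason. Total-count scaling left 1 called clock gene in 3-month males (Cry1, against 3), gave 1 in 3-week males (Cry1, against 0) and 0 in 3-week females (against 1). In 3-week females a threshold of 0.01 gave 0 called clock genes and adjustment over every gene with a fold change gave 2, Nr1d1 and Dbp, with Per1 lost. The authors gave Nr1d1 and Dbp no p-value there, so these 2 calls rest on genes that they set aside by a rule not known. Among the further clock genes, the threshold of 0.01 gave 2 calls in 3-week males (against 4) and 2 in 3-week females (against 5). It gave 3 differences between 3-month and 3-week males (against 7). In 3-week females a mean of at least 100 gave 2 calls, with Arntl2, Rorb and Ciart lost, and total-count scaling gave 8. Signs turned under total-count scaling, in 3-month males, to 0.0015 for Btrc, 0.33 for Sfpq, 0.29 for Wdr5, 0.28 for Sirt1, 0.32 for Gsk3b and 0.27 for Wee1. They turned to 0.17 for Nfil3, 0.044 for Wdr5 and 0.14 for Ncor1 in 3-week males, and to 0.14 for Rora, 0.14 for Btrc, 0.086 for Wdr5 and 0.12 for Wee1 in 3-week females. Among genes without a call, Arntl (0.10), Clock (0.17) and Dbp (0.04) in 3-week males and Per3 (0.03), Cry1 (0.14) and Nr1d2 (0.06) in 3-week females also turned positive, as did Npas2 (0.17) in 3-month males and Npas2 (0.13) and Sirt1 (0.17) in 3-week males. With the median subtracted, Hdac3 turned to -0.0079 in 3-month males. Total-count scaling adds a constant to each table by construction, and a stricter threshold or mean removes calls by construction. The shares of calls over all genes under these alternatives are not given here, so the counts of calls under them are not results about the lists. Undoing the moderation keeps each ratio of fold change to SE, so by construction it cannot change a call within a table. Differences between tables can change, and it ended the age difference of Fbxl21. With few libraries behind each table, wide SEs limit what can be said of any clock gene without a call.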
